A study of Homo sapiens with 10 samples.

Results

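FGF3, FGF4, FGF19, ORAOV1, MYEOV and TPCN2 are 6 genes of 1 stretch of human chromosome 11, the band that also holds CCND1. They were picked by gene symbol, CCND1 being left out, from the 58381 genes listed for each library. The study asked how disrupting a CTCF insulator, a site where the DNA-binding protein CTCF limits contact between neighbouring stretches of chromatin, affects expression in cells with intact succinate dehydrogenase. RNA was sequenced from GIST-T1, an established cell line derived from a metastatic gastrointestinal stromal tumour, grown in medium with serum and with no treatment named. The control group carries the genotype WT, and the 4 edited groups are the insulator knockout lines InsE, InsF, InsG and InsH. Each of the 5 groups has 2 libraries, numbered 1 and 2. The labels leave unsaid what was edited in each line, whether it is 1 clone, and whether libraries 1 and 2 were cultured separately. P-values, apart from that of the FGF4 permutation, thus reflect only how far the libraries within a group differ, possibly for technical reasons.

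FGF3, FGF4 and FGF19 encode secreted fibroblast growth factors. FGF3 and FGF4 act on nearby cells by binding FGF receptors together with heparan sulphate, and both are active in embryos and mostly silent in adult tissue. FGF19 is an endocrine member, made by the ileum in response to bile acids, that needs the co-receptor KLB to signal. ORAOV1, now named LTO1, encodes an adaptor that helps to deliver iron-sulphur clusters to the ribosome recycling factor ABCE1. TPCN2 encodes an ion channel of endosomes and lysosomes, and MYEOV was named for its overexpression in multiple myeloma. Gastrointestinal stromal tumours usually depend on the receptor KIT, and FGF signalling is a known parallel input to the same ERK pathway.

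The 6 genes span a region that runs from TPCN2 to FGF3 in build hg38, FGF3 lying farthest from the centromere. FGF3 occupies chr11:69809969-69819024 on the minus strand. FGF4 (chr11:69771016-69775403), FGF19 (chr11:69698232-69704642) and ORAOV1 (chr11:69653076-69675416) are also on the minus strand. Their annotated starts lie 43.6, 114.4 and 143.6 kb from that of FGF3. MYEOV (chr11:69294138-69367726) and TPCN2 (chr11:69048897-69162440) are on the plus strand, with starts 524.9 and 770.1 kb away. All 6 are annotated as protein coding.

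Values are given on 3 scales. Counts are the reads that RSEM estimated for a gene, CPM are those counts scaled to equal depth by the trimmed mean of M values (TMM), and TPM are per transcript length and allow levels of different genes to be compared. Library totals ran from 9399554 to 42499885 counts, and in every group replicate 2 was the shallower. The GIST markers KIT, ANO1, ETV1, PRKCQ, HAND1 and FOXF1 were all at 9.46 TPM or more in all 10 libraries. In the average of the 4 lines 4 of these 6 fell and none rose, where 14.5% of all tested genes fell and 13.1% rose. Their median log2 change was -0.45 against 0.01 over all tested genes. The 11 markers of epithelial, blood, endothelial, glial and muscle cells reached at most 0.96 TPM, S100B and DES had no count in any library, and none of the 3 that could be tested passed. Of the 6 genes, 5 passed the filter on low counts and were tested with edgeR among 15554 genes, and FGF4 was not. FGF3, FGF19 and MYEOV passed it through the line libraries alone, so their calls are not counted as support for a rise of the group as a whole. All comparisons with control use the same 2 control libraries.

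FGF3 RNA was absent from both control libraries and present in all 8 libraries of the edited lines. Both control libraries had 0 counts. InsE had 1141 and 341 counts, InsF 363 and 212, InsG 223 and 61, and InsH 169 and 126. All 8 line libraries were above both controls. Since FGF3 passed the filter through the line libraries alone, this cannot be set against the 13.3% of tested genes with that arrangement. Counts of different lines overlapped, their libraries differing in depth. On the depth-scaled level, InsE had 36.5 and 36.1 CPM, InsF 12.5 and 14.3 CPM, InsH 7.29 and 10.4 CPM, and InsG 5.21 and 5.46 CPM. On this scale InsE stood above the other lines in both libraries, and replicates differed least in InsG and InsE and most in InsH. With 3 counts over both control libraries as the limit that a count of 0 allows (0.0608 CPM), the InsE level was at least 599-fold higher. The bound was 216-fold in InsF, 138-fold in InsH and 86.5-fold in InsG. These folds take the pooled CPM of a line as measured, without its counting error. The edgeR adjusted p was 1.3e-06 for InsE, 1.89e-06 for InsF, 6.64e-06 for InsH and 1.45e-05 for InsG. In bulk RNA, more cells with FGF3 and more FGF3 RNA per cell cannot be told apart.

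**Figure D1:**
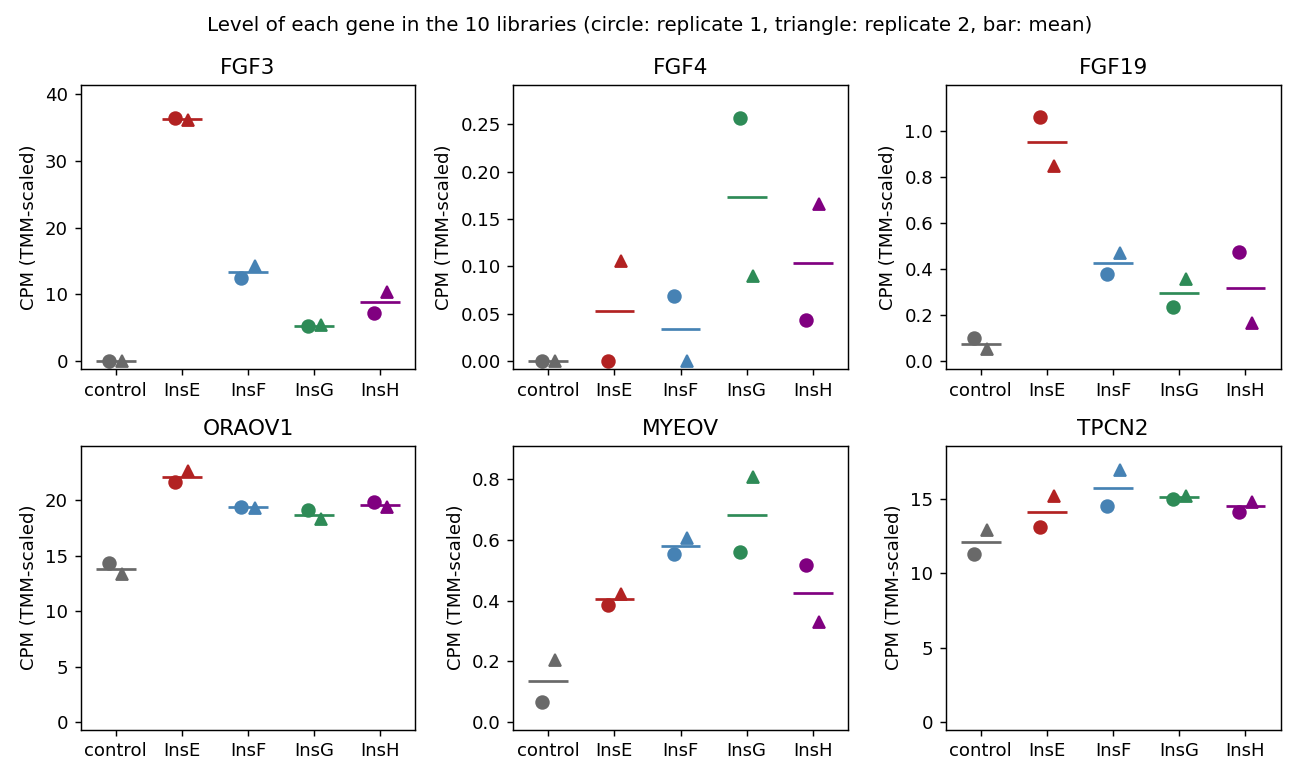
Level of the 6 genes in CPM (vertical axes, linear, scaled to each gene) in control and the lines InsE, InsF, InsG and InsH, with circles for replicate 1, triangles for replicate 2 and bars for the mean of the 2 libraries. FGF3 is at 0 in control and highest in InsE at 36.5 and 36.1 CPM, while ORAOV1 and TPCN2 are expressed in control and are higher in all 8 line libraries.

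The level of FGF3 in the lines was that of an ordinary expressed gene rather than a trace. Mean TPM was 66.3 ± 5.11 in InsE, 27.0 ± 1.46 in InsF, 17.4 ± 4.79 in InsH and 10.8 ± 0.537 in InsG (SD, n = 2). In InsE 83.4% of the tested genes had a lower TPM than FGF3, in InsF 64.2%, in InsH 54.3% and in InsG 44.9%. FGF3 was therefore well above the median tested gene in InsE and a little below it in InsG.

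Among the 22 human FGF genes, FGF3 went from no detected RNA to a leading place. By mean TPM it ranked 2 of 22 in InsE, InsF and InsH and 3 of 22 in InsG. FGF14, an intracellular family member that is not secreted and does not act as a typical ligand, ranked first in all 10 libraries, at 64.65 to 120.35 TPM. FGF3 made up 40.4% and 41.2% of the summed TPM of the family in the InsE libraries and 16.3% and 19.8% in InsF. It made up 9.2% and 15.1% in InsH and 6.9% and 7.7% in InsG. The next secreted ligand was FGF2, at 19.0 TPM in InsE and 18.9 TPM in InsG, so that FGF3 exceeded FGF2 in the means of InsE, InsF and InsH but not of InsG. In InsH this rested on replicate 2 (20.79 against 14.69 TPM), since replicate 1 had less FGF3 than FGF2 (14.01 against 18.28 TPM).

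**Figure D2:**
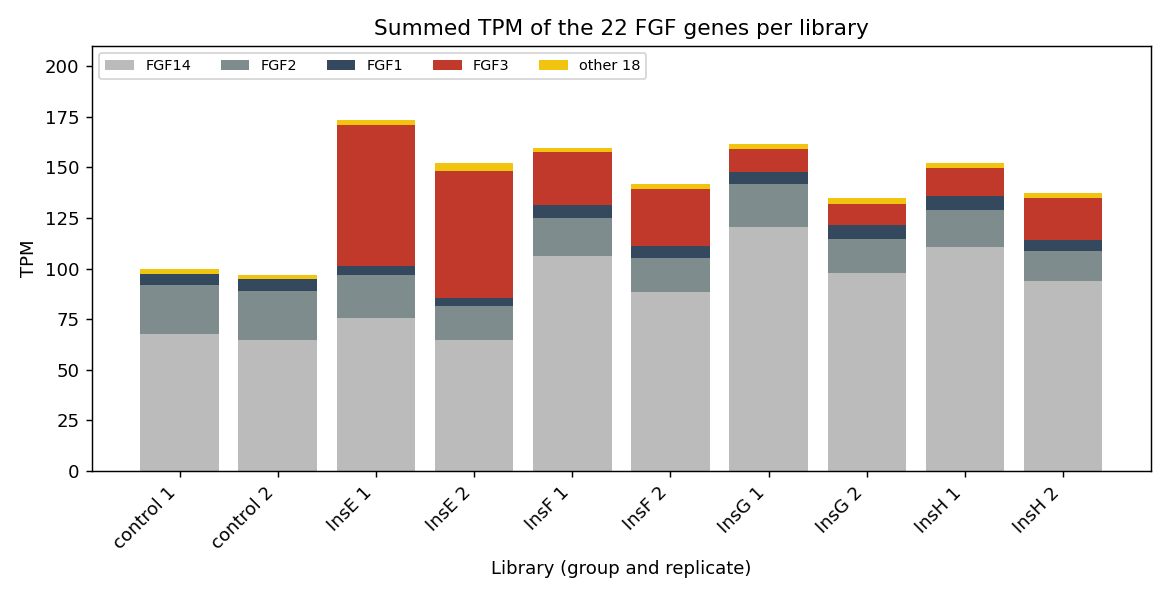
Summed TPM of the 22 FGF genes in each of the 10 libraries (stacked bars, linear axis from 0), split into FGF14, FGF2, FGF1, FGF3 and the other 18. FGF3 is absent from both control bars and takes 40.4% and 41.2% of the InsE bars.

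FGF3 has a coding transcript of 1147 bases and a processed transcript of 882 bases that is annotated as non-coding. The mean transcript length that RSEM reports gives the share of FGF3 molecules assigned to each. InsE had coding shares of 40.3% and 59.9%, InsF of 30.6% and 36.9%, InsG of 27.1% and 54.1%, and InsH of 57.0% and 35.6%. Both transcripts were thus assigned reads in all 8 libraries. Replicates of InsG differed more than the lines did, so no order of the lines could be read from these shares.

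**Figure D3:**
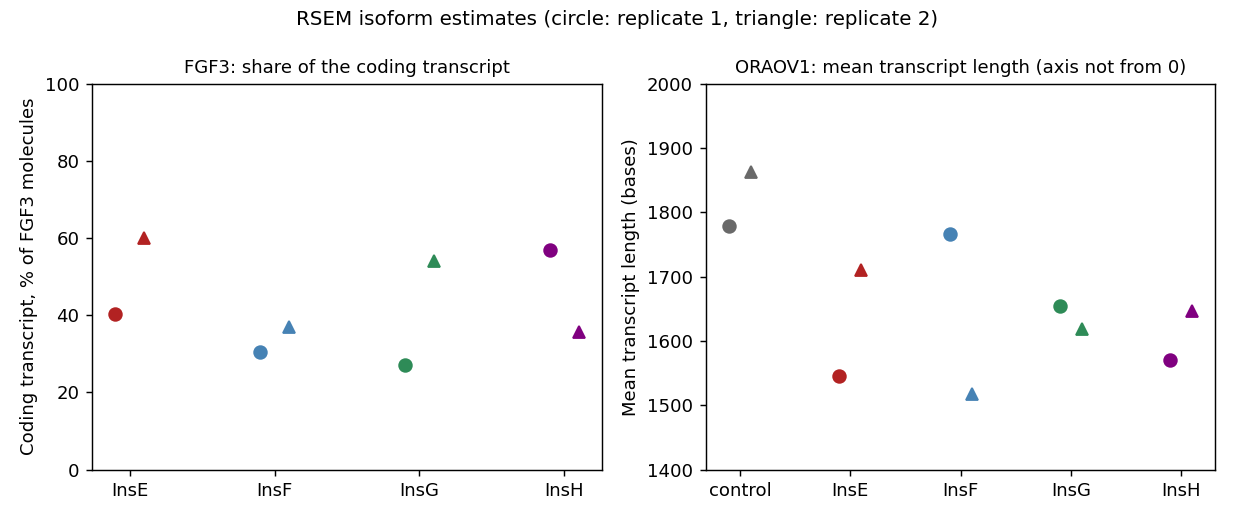
RSEM isoform estimates per library, with circles for replicate 1 and triangles for replicate 2. The left panel gives the coding transcript as a percentage of FGF3 molecules in the 4 lines, from 27.1% to 59.9%, and the right panel the mean ORAOV1 transcript length in bases (the axis does not start at 0), which is longest in both control libraries.

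The stretch just upstream of FGF3, read from RefSeq on GRCh38.p14, is shown because its gene had no detected RNA in control and RNA in every line library. Those of ORAOV1 and TPCN2, which control cells already expressed, stand beside it for comparison. Each begins at or beyond the annotated starts and reads 5′ to 3′ on the gene's own strand. The capitals mark short motifs on either strand, which are the letters TATAA of the TATA box, the CCAAT box and, for the GC box, the letters GGGCGG.
FGF3, chr11:69819417-69819666, minus strand: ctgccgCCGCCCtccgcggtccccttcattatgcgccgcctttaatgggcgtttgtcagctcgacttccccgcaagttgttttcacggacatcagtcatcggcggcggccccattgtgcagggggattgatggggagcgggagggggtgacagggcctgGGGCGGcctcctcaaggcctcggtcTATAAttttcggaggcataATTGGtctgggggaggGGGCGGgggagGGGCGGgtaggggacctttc
ORAOV1, chr11:69675417-69675603, minus strand: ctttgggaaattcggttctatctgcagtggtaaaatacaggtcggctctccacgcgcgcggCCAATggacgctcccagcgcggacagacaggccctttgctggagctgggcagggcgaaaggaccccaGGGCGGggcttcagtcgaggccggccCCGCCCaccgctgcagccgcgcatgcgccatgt
TPCN2, chr11:69048682-69048896, plus strand: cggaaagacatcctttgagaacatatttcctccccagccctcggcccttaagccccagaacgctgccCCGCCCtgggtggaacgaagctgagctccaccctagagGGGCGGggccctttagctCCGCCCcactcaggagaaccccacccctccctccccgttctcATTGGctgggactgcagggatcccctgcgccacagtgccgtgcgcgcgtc

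The GC content of the windows was 64.4% in FGF3, 66.3% in ORAOV1 and 65.6% in TPCN2, against a median of 58.0% over 35116 RefSeq promoters. The FGF3 window held 1 TATAA, which 18.9% of all promoters hold in a window of that length, and the windows of ORAOV1 and TPCN2 held none. The CCAAT box was present in all 3 windows, with 1 match each. The GC box letters occurred 4 times in FGF3, 2 times in ORAOV1 and 3 times in TPCN2, where 42.6%, 32.4% and 38.3% of promoters hold it in windows of the same lengths. The ETS core CCGGAA was searched on both strands, and these letters did not occur in the 3 windows (14.5% of promoters hold them in a window as long as that of FGF3). Such matches describe the letters and are not evidence of binding.

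FGF4, the nearest neighbour of FGF3, remained close to the detection limit. It had 0 counts in both control libraries, and the lines had 0 and 1 (InsE), 2 and 0 (InsF), 11 and 1 (InsG) and 1 and 2 (InsH). Of the 18 counts, 11 came from InsG replicate 1, the deepest library, where they amounted to 0.257 CPM. Pooled over its libraries InsG had 0.222 CPM (95% Poisson interval 0.115 to 0.388, counting error only). That estimate was 3.65 times the control limit of 0.0608 CPM, and the lower end of its interval lay nearer to the limit. InsE, InsF and InsH had 1, 2 and 3 counts in all. The mean over the 8 line libraries was 0.0913 ± 0.0868 CPM (SD, n = 8) against 0 in control. An exact permutation test over libraries did not separate them (two-sided p = 0.267, the smallest possible being 0.0444). That test takes the 8 libraries as separate units, although 2 come from each line. All counts were assigned to the coding transcript of 3233 bases. FGF4 was highest in InsG, the line in which FGF3 was lowest, and FGF3 had 284 counts there against 12 for FGF4.

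FGF19 was low in every library and higher in the lines than in control. Control had 3 and 1 counts, InsE 33 and 8, InsF 11 and 7, InsG 10 and 4, and InsH 11 and 2. All 8 line libraries had a higher CPM than both control libraries. The ratio of summed counts to control was 12.4 in InsE (95% Clopper-Pearson interval 4.5 to 47.7), 5.06 in InsF (1.67 to 20.6), 4.55 in InsH (1.4 to 19.1) and 3.2 in InsG (1.0 to 13.3). FGF19 rose in InsE by 3.51 ± 0.60 on the log2 scale (SE, edgeR adjusted p = 0.00284) and in InsF by 2.30 ± 0.65 (0.0313), and the values of InsH (2.06 ± 0.68, 0.0627) and InsG (1.69 ± 0.68, 0.111) did not pass. The InsH value was 0.99 (0.663) without InsH replicate 1, and 2.49, past the threshold (0.0488), without InsH replicate 2. The InsF call rested on single libraries, its adjusted p being 0.119 and 0.167 when control replicate 1 or 2 was left out, 0.0943 and 0.11 when an InsF library was, and 0.0514 when InsE replicate 1 was. Even in InsE the level was 0.625 ± 0.12 TPM (SD, n = 2), against 66.3 TPM for FGF3 in the same libraries.

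ORAOV1 was expressed in control and rose by a similar small step in all 4 lines. Control had 14.3 and 13.3 CPM, InsE 21.6 and 22.6, InsF 19.4 and 19.3, InsG 19.1 and 18.3, and InsH 19.8 and 19.4. Control and lines did not overlap, and the replicates of each group lay within 1 CPM of each other. The change was 0.67 ± 0.07 on the log2 scale in InsE (SE, edgeR adjusted p = 0.000267), 0.48 ± 0.07 in InsF (0.00156), 0.50 ± 0.07 in InsH (0.00168) and 0.44 ± 0.07 in InsG (0.00313). In fold terms the rise ran from 1.35 in InsG to 1.59 in InsE. Without InsG replicate 1 the InsG value was 0.40 with an adjusted p of 0.0503.

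The TPM of ORAOV1 rose more than its counts. The ratio of mean TPM to control was 1.81 for InsE, 1.66 for InsF, 1.72 for InsH and 1.63 for InsG, against ratios of mean CPM of 1.60, 1.40, 1.42 and 1.35. The mean transcript length that RSEM estimated was 1778 and 1863 bases in control and 1517 to 1766 bases in the lines, so that all 8 line libraries were below both controls. Of the 12957 genes whose estimated length varied, 3.08% showed the same arrangement. ORAOV1 has 18 annotated transcripts of 359 to 3776 bases, and the files do not give the counts of each.

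ORAOV1 is convergent with CCND1 (cyclin D1), whose last 1399 bases overlap it, and 3 of its transcripts share 497 exon bases with CCND1. Whether counting used strand is not given in the sources used here, so reads of the overlap could have been split between the genes. The ORAOV1 count was not whole in 4 libraries, at 427.01 (control replicate 1), 676.16 (InsE replicate 1), 816.32 (InsG replicate 1) and 234.15 (InsH replicate 2). The CCND1 count was not whole in the same 4, at 8241.99, 11991.84, 9844.68 and 2726.85 in that order. CCND1 was higher than control in InsE (0.48 ± 0.05 on the log2 scale) and lower in InsF (-0.42 ± 0.05), InsG (-0.22 ± 0.05) and InsH (-0.28 ± 0.05), whereas ORAOV1 rose in each. The part of shared reads in the ORAOV1 change was not tested.

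MYEOV was barely expressed, and rose in some of the lines. It had 2 and 4 counts in control, while InsE had 12 and 4, InsF 16 and 9, InsG 24 and 9, and InsH 12 and 4. In CPM all 8 line libraries were above both control libraries, which had 0.0671 and 0.205 CPM. The rise over control passed in InsG (2.33 ± 0.56 on the log2 scale, edgeR adjusted p = 0.0177) and InsF (2.15 ± 0.56, 0.0231). The values in InsH (1.78 ± 0.59, 0.0664) and InsE (1.62 ± 0.60, 0.0805) did not pass. Ratios of summed counts were 5.02 in InsG (95% Clopper-Pearson interval 2.08 to 14.7), 4.69 in InsF (1.88 to 14.0), 3.73 in InsH (1.39 to 11.6) and 3.23 in InsE (1.2 to 10.1). Both calls were lost without control replicate 1 (adjusted p of 0.171 in InsG and 0.209 in InsF) and without either library of the line itself, at 0.0667 and 0.0585 in InsG and 0.0907 and 0.0833 in InsF. The estimated transcript length of MYEOV moved between 898 and 2468 bases even within groups, and in InsF the ratio of means was 2.61 in TPM against 4.25 in CPM.

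TPCN2, the member farthest from FGF3, was expressed in control and shifted least. Control had 11.3 and 12.9 CPM, InsE 13.1 and 15.2, InsF 14.5 and 16.9, InsG 15.0 and 15.2, and InsH 14.1 and 14.8. All 8 line libraries lay above both controls in CPM, InsE replicate 1 by little, and 7 of 8 did so in TPM. The rise passed in InsF (0.37 ± 0.11 on the log2 scale, edgeR adjusted p = 0.0411). The values were 0.32 ± 0.11 in InsG (0.0689), 0.26 ± 0.11 in InsH (0.147) and 0.21 ± 0.12 in InsE (0.224). The InsF call was lost in 7 of the 10 fits that left out 1 library, at adjusted p of 0.277 and 0.0727 when control replicate 1 or 2 was left out, 0.198 for InsF replicate 2, and 0.0562, 0.0544, 0.0527 and 0.0521 for InsG replicates 1 and 2 and InsH replicates 1 and 2.

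Counted together, InsF had the most calls, with all 5 tested members higher, where 10.9% of all tested genes rose. InsE and InsG each had 3 (10.8% and 9.86% of genes) and InsH had 2 (8.95%), and no member fell. FGF3, FGF19 and MYEOV passed the count filter only through the line libraries, so their rises cannot be set against these shares. The larger number in InsF rested on FGF19, MYEOV and TPCN2, none of which passed the test of any difference among the 4 lines. With DESeq2 each of the 4 lines had 2 calls. Of the 2 members that control cells already expressed, ORAOV1 rose in all 4 lines and TPCN2 in InsF. Averaged over the 4 lines, all 5 tested members rose, but only ORAOV1 and TPCN2 can be set against the 13.1% of genes that did. The mean changes were 2.39 ± 0.55 for FGF19 (edgeR adjusted p = 0.0109), 1.97 ± 0.49 for MYEOV (0.0149), 0.52 ± 0.06 for ORAOV1 (0.000212) and 0.29 ± 0.09 for TPCN2 (0.0376), on the log2 scale with SE. Leaving out control replicate 1 gave adjusted p of 0.0847 for FGF19, 0.221 for MYEOV and 0.374 for TPCN2, and leaving out the other control library gave 0.112 for FGF19 and 0.0816 for TPCN2. TPCN2 also missed the threshold without InsF replicate 2 (0.0518), either InsG library (0.0581 and 0.0546) or InsH replicate 2 (0.0572). The 5 tested members each had all 8 line libraries above both controls in CPM. For FGF3, FGF19 and MYEOV the way they passed the filter favoured this arrangement. Only for ORAOV1 and TPCN2 can it be set against the 13.3% of tested genes that showed it.

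**Figure D4:**
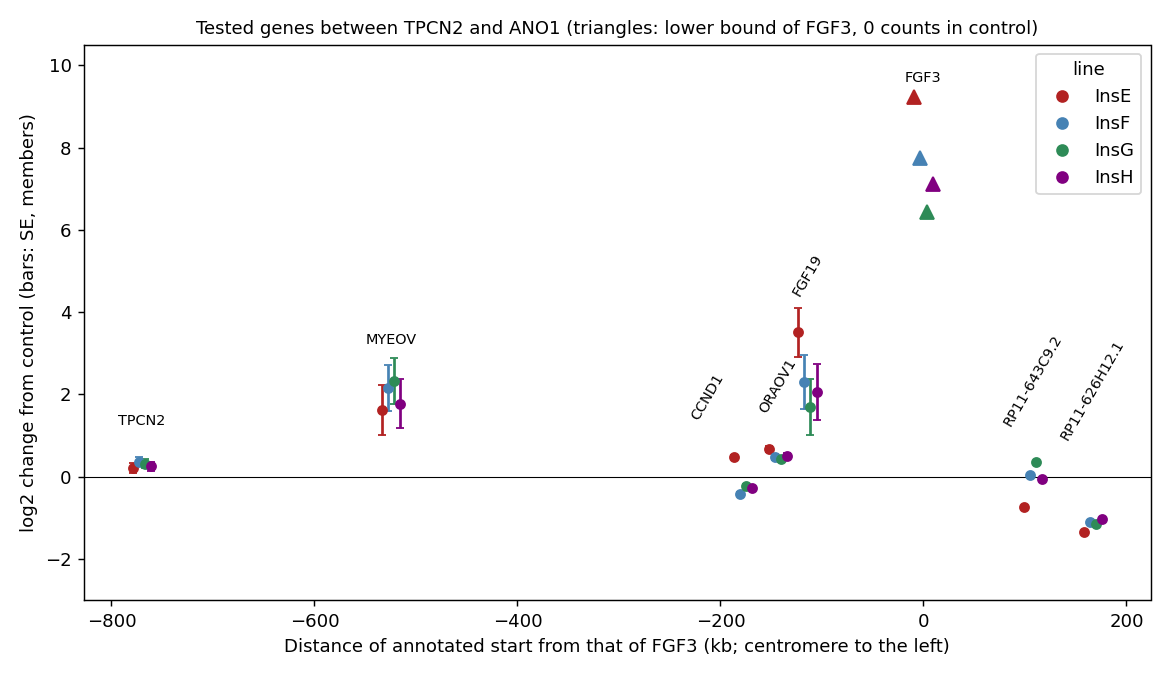
Log2 change of each line from control (vertical axis) against the distance of a gene's annotated start from that of FGF3 in kb (horizontal axis, centromere to the left), for the 8 tested genes between TPCN2 and ANO1. Points are edgeR estimates, set slightly apart sideways by line, with SE bars for the members, and triangles give the lower bound for FGF3, from 86.5-fold in InsG to 599-fold in InsE.

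The lines did not all show the same levels, and FGF3 differed most clearly between them. Of the 5 tested members only FGF3 passed the test of any difference among the 4 lines (edgeR adjusted p = 4.13e-05), which 13.2% of genes passed. FGF19 had an adjusted p of 0.0948, ORAOV1 0.171, MYEOV 0.657 and TPCN2 0.702.

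All 6 pairs of lines were compared for the 5 tested members, 30 differences in all, each adjusted over all tested genes. FGF3 in InsE exceeded InsF by 1.45 ± 0.14 on the log2 scale (SE, edgeR adjusted p = 0.000252), InsH by 2.07 ± 0.15 (6.75e-05) and InsG by 2.78 ± 0.16 (2.02e-05), which is 2.73-, 4.2- and 6.85-fold. It was thus highest in InsE against each other line. FGF3 in InsF exceeded InsG by 1.33 ± 0.16 (adjusted p = 0.0308), and that call was lost without either control library, either InsF library or either InsG library. The neighbours in the order InsF, InsH, InsG did not pass, InsF minus InsH being 0.62 ± 0.16 (unadjusted p = 0.00342, adjusted 0.697) and InsG minus InsH -0.71 ± 0.17 (0.00269, adjusted 0.865). FGF19 was higher in InsE than in InsG by 1.82 ± 0.51 (adjusted p = 0.0361), a call kept when either InsH library was left out and lost without any of the other 8 libraries. No other difference passed. The share of genes called was 18.6% between InsE and InsF, 17.3% between InsE and InsG and 14.5% between InsE and InsH. It was 0.174% between InsF and InsG, 0.0707% between InsF and InsH and 0.0% between InsG and InsH.

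**Figure D5:**
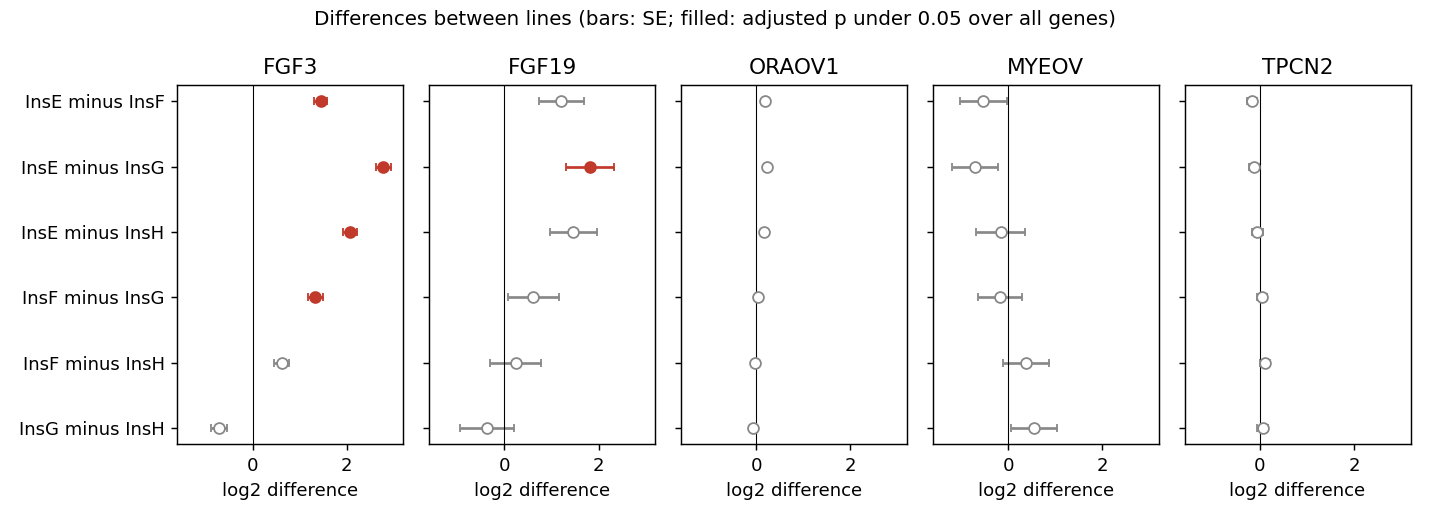
Log2 difference between each pair of lines (rows) for the 5 tested members (panels), with SE bars and filled points where the adjusted p over all genes was below 0.05. FGF3 in InsE exceeds every other line, by 1.45 to 2.78, and the points of ORAOV1 and TPCN2 lie near 0.

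The order of the lines was not shared by all members. InsE had the highest mean CPM for FGF3 (36.3), FGF19 (0.951) and ORAOV1 (22.1), the tested members within 143.6 kb of FGF3. InsE had the lowest mean CPM of the lines for MYEOV (0.404) and TPCN2 (14.1), which start 524.9 and 770.1 kb away. Over the 8 line libraries log2 CPM of FGF3 had a Pearson r of 0.90 with ORAOV1 and 0.83 with FGF19, and of -0.59 with MYEOV and -0.24 with TPCN2. These are descriptions over 8 points that share 4 lines and their depths. For ORAOV1, MYEOV and TPCN2 the differences between InsE and each other line did not pass, and for FGF19 only that from InsG did. FGF4, which starts 43.6 kb from FGF3 and was too low to be tested, had its highest mean CPM in InsG (0.173).

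The rest of the region was nearly silent on the centromeric side. Between the starts of TPCN2 and ANO1, a span of 1029.4 kb, 21 genes other than the members are listed, of which 11 had no count in any library and 3 were tested. On the centromeric side of FGF3 there are 14, and apart from CCND1 each of the other 13 had at most 2 counts summed over the 10 libraries. On the telomeric side, the long non-coding RNA gene RP11-626H12.1 (start 166.9 kb away) fell in each line, with log2 changes of -1.34 to -1.03 and adjusted p of 0.000283 to 0.00129. RP11-643C9.2 (107.8 kb away) changed by -0.74 in InsE and 0.35 in InsG and did not pass in any line. RP11-643C9.1, the nearest on that side at 92.0 kb, had 3 and 2 counts in InsE, 4 and 0 in InsF, and 0 in the 6 libraries of control, InsG and InsH.

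The genes whose pattern was most like that of a member were found over the 10 libraries by Pearson's r of log2(CPM + 0.5). For FGF3 the 5 closest were TSC22D3 (r = 0.98), NDUFA2 (0.98), NRBP2 (0.979), ORAOV1 (0.977) and ST3GAL5 (0.976). ORAOV1, its neighbour on the chromosome, thus ranked 4 among the tested genes, those with clone or pseudogene names being left out of these lists. Over the 8 line libraries alone r was 0.989 for TSC22D3 and 0.899 for ORAOV1. For ORAOV1 the closest were PGS1 (0.987), SCRN2 (0.984), UPF3A (0.982), PITHD1 (0.98) and FGF3 (0.977). For TPCN2 they were LTB4R (0.957), FAM227A (0.95), FUZ (0.939), IL11RA (0.934) and RUNX1T1 (0.927). The libraries of a group share their line, so these values rest largely on 5 group means.

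Genes of FGF receptors were expressed in these cells, but the values are per gene and do not tell which receptor forms were made. FGFR2 was at 159.68 to 208.63 TPM and FGFR1 at 95.01 to 118.96 TPM over the 10 libraries, while FGFR3 and FGFR4 were at most 1.83 and 2.55 TPM. The klothos KLB and KL, the co-receptors of the endocrine FGFs, were at most 0.13 and 0.04 TPM and were not tested. Of the 7 receptors and co-receptors, 5 were tested, 3 fell in the average of the 4 lines and none rose, with a median change of -0.16 against 0.01 over all genes, of which 14.5% fell. FGFRL1, a receptor without a kinase domain, fell by 0.66 ± 0.08 on the log2 scale (edgeR adjusted p = 0.000333). By line, FGFR4 was lower in InsF, InsG and InsH but did not pass in InsE (-0.16, edgeR adjusted p = 0.556). FGFR2 was lower in InsE and InsF but did not pass in InsG (-0.09, 0.15) or InsH (-0.12, 0.0904). In the average of the lines FGFR4 fell by 0.64 ± 0.14 (0.00748) and FGFR2 by 0.16 ± 0.03 (0.00686). The calls of FGFR4 and FGFR2 were lost without either control library, at 0.0541 and 0.111 for FGFR4 and 0.133 and 0.0576 for FGFR2.

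Of the 19 other FGF genes, 5 were tested, of which 1 rose and 1 fell in the average of the lines. Their median change was -0.17, and of all tested genes 13.1% rose and 14.5% fell. FGF14 rose by 0.55 ± 0.07 on the log2 scale (edgeR adjusted p = 0.000379), and FGF2, a secreted ligand, fell by 0.51 ± 0.10 (0.00451, but 0.0621 without control replicate 1 and 0.0561 without control replicate 2).

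Among 16 genes known to respond to FGF signalling through ERK, the average of the 4 lines was higher than control for 2 and lower for 6. Over all tested genes 13.1% rose and 14.5% fell, and the median change of the 16 was -0.17. DUSP6, a phosphatase that inactivates ERK, had 157 CPM in control and 185 in InsE, but 65.3 (InsF), 69.9 (InsG) and 67.5 (InsH) in the others. It thus rose by 0.24 in InsE on the log2 scale (edgeR adjusted p = 0.0153) and fell in the other 3 lines (1.57e-06 to 3.76e-06). The difference of DUSP6 among the lines passed (edgeR adjusted p = 1.55e-06), and a link to FGF3 RNA was not tested. SPRY4, a feedback inhibitor of the pathway, had the same arrangement. It had 489 CPM in control, 578 in InsE (edgeR adjusted p = 0.0416) and 265 to 278 in the other lines (6.04e-05 to 8.88e-05). By line, DUSP5 was higher in InsF, InsG and InsH but did not pass in InsE (0.33, edgeR adjusted p = 0.0698). DUSP5, another ERK phosphatase, rose by 0.74 ± 0.09 in the mean of the lines (0.000339), and ETV4, an ETS transcription factor induced by ERK, fell by 0.44 ± 0.09 (0.00647, but 0.0596 without control replicate 1 and 0.0831 without control replicate 2).

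Most partners of ORAOV1 and relatives of TPCN2 did not pass in the average of the 4 lines. Over all tested genes 13.1% rose and 14.5% fell in that average. Of 9 genes of the ORAOV1 complex and iron-sulphur delivery, all tested, 1 was higher (YAE1D1) and 1 lower (NUBP1) in the average of the lines, with a median of 0.05. YAE1D1, the direct partner of ORAOV1, rose by 0.29 ± 0.08 on the log2 scale (edgeR adjusted p = 0.0261, but 0.151 and 0.212 without control replicate 1 and 2). NUBP1, an iron-sulphur scaffold protein, fell by 0.26 ± 0.08 (0.0409, but 0.142 and 0.282 without those libraries). Of 6 other endolysosomal channels, 2 rose and none fell, with a median of 0.10. By line, TMEM175 and CLCN7 each passed in InsF and InsH only, CLCN7 being at 0.01 in InsE (edgeR adjusted p = 0.972). In the average of the lines TMEM175, a lysosomal proton and potassium channel, rose by 0.41 ± 0.09 (0.00969), and CLCN7, a lysosomal chloride transporter, by 0.20 ± 0.06 (0.0419). Both calls were lost without either control library, at 0.0645 and 0.124 for TMEM175 and 0.275 and 0.191 for CLCN7.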

How the data were processed

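RNA of 10 GIST-T1 libraries was extracted with RNeasy Plus, selected for poly(A) and prepared with NEBNext Ultra II, per the labels' protocols. The submitters' processing notes name STAR 2.5.3, RSEM 1.3.2, DESeq2 1.38.3 and the genome hg38, while the gene annotation used and the strandedness of counting are not stated in the sources at hand. The authors' deposited gene tables hold RSEM's expected counts, TPM (which sum to 1000000 per library) and an estimated transcript length. Of 58381 gene rows, 58261 matched GENCODE 29, the source of positions. An additional deposited table with 10 value columns, some of whose names match no sample label, was not used.

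After rounding, expected counts entered edgeR 4.0.16 (TMM factors, a minimum count of 10, robust quasi-likelihood test) in 1 fit of all 10 libraries, with Benjamini-Hochberg adjustment over 15554 genes and a threshold of 0.05. The lines were each compared with control, averaged against control, and compared with one another. FGF4 was compared by an exact permutation over libraries. SD are over the 2 libraries of a group, and SE are from the fit. Poisson and Clopper-Pearson intervals (95%) are on counts summed over a group and scaled by the TMM library sizes. They cover counting error only, as do the limits of 3 counts.

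Alternatives were library sizes alone, RLE factors, DESeq2 1.42.0, no filter, a minimum count of 30, a replicate block, limma 3.58.1 on log2(TPM + 1) and log2(TPM + 0.1), only the 2 groups compared, and each library left out. The members and the gene lists were chosen with earlier results of these data known. The genes named are all 6 members, the tested genes of the region, the 5 genes most like FGF3, ORAOV1 and TPCN2, and up to 4 called genes per list with the largest mean change. RP11-643C9.1 and the co-receptors KLB and KL fall outside that rule and were named after their values were seen, as were FGFR1, FGFR3, S100B and DES.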

Additional observations from a re-analysis of the deposited data

Results flagged for a closer look

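The level of FGF3 differed among the 4 edited lines, whose effects were measured against the same control (edgeR quasi-likelihood adjusted p = 4.13e-05 for the test of any difference). Both InsE libraries, at 36.5 and 36.1 CPM, lay above all 6 libraries of InsF, InsG and InsH, which ran from 5.21 to 14.3 CPM. The call was kept in each of the 18 alternatives tried for it.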

How the results depend on the processing

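FGF3 in each line and ORAOV1 in InsE, InsF and InsH kept their calls in each of the 19 alternatives tried. Of 535 alternative values of single genes, none reversed, 46 lost and 8 gained a call. DESeq2 called 2 members in InsF and 2 in the mean of the lines, limma on log2(TPM + 1) 2 and 2, and limma on log2(TPM + 0.1) 2 and 3. With a minimum count of 30 these were 3 and 3, since FGF19 and MYEOV were no longer tested. Leaving out 1 library gave 2 to 5 members in InsF, 1 to 3 in InsG, 2 to 3 in InsH and 2 to 5 in the mean. Differences of members between lines numbered 5, 3 with either limma fit, 4 with DESeq2, 7 without a filter (adding FGF3 for InsF against InsH and for InsG against InsH), 7 with the replicate block and 3 to 5 leaving out 1 library.

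Genes called in InsE, InsF, InsG, InsH and the mean numbered 3611, 3461, 3163, 2863 and 4296, with DESeq2 2397, 2169, 1988, 1841 and 2840, with limma on log2(TPM + 1) 1791, 1661, 1329, 1367 and 2236, and with limma on log2(TPM + 0.1) 1804, 1671, 1333, 1375 and 2238. Among the lines 2055 differed, 3660 without a filter and 984 and 979 with limma. Leaving out 1 library gave 1429 to 3516 in InsE, 1446 to 3390 in InsF, 1170 to 3142 in InsG, 1108 to 2845 in InsH, 1501 to 4311 in the mean and 700 to 1873 among the lines. The cause of these shifts was not tested.

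The replicate numbers are shared across groups, but the labels do not say that they pair samples. Deviations of same-numbered libraries correlated by 0 to 0.04 between control and lines and by 0.39 to 0.46 between lines. With the replicate block 5935, 5886, 5769, 5317 and 6679 genes were called against control and 5442 among the lines, and 5 members were called in InsH and 2 among the lines, FGF19 being added there. Between lines the block added FGF3 for InsF against InsH (0.64 on the log2 scale, adjusted p = 0.0422) and ORAOV1 for InsE against InsG (0.22, 0.029), the latter also called at a minimum count of 30 (0.24, 0.0468). At 9399554 to 42499885 counts per library, FGF4 in InsE, InsF and InsH was at or under the limit that a count of 0 allows (3 counts per group), and control had 4 counts of FGF19 and 6 of MYEOV in all.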
